A study of Mus musculus with 10 samples.

Results

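The genes described here encode cullins, F-box proteins and numbered Kelch-like proteins, taken from the gastrocnemius RNA sequencing of diet-induced obese (DIO) mice treated with an antisense oligonucleotide (ASO) against miR-22. They were chosen by symbol, as every gene of the table named Cul, Fbxo, Fbxw, Fbxl or Klhl followed by a number, except Fbxo21, Fbxo30, Fbxo31 and Fbxo32. The rule found 118 of 21098 genes, namely 8 cullins, 74 F-box genes (32 Fbxo, 23 Fbxw and 19 Fbxl) and 36 Klhl genes, of which Klhl31, Klhl40 and Klhl41 are kept apart as the Kelch genes known for striated muscle. Of the 118 genes, 50 had enough counts to be tested.

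The animals were male C57BL/6J mice of WT genotype. All were put on a high-fat diet (D12492i) at 9 weeks of age and, after 9 weeks, were injected subcutaneously once a week for 14 weeks while the diet went on. The series' design text gives their age as 30 weeks, which these durations do not add up to. By the study's weight records several CTRL mice were lighter than every ASO mouse at the first injection, so starting weight and treatment cannot be told apart. The 5 ASO libraries (treatment RES-010) came from mice given 10 mg/kg of the anti-miR-22 oligonucleotide, a locked nucleic acid mixmer. The 5 CTRL libraries came from mice given matched volumes of 0.9% saline, so an effect of miR-22 inhibition and an effect of giving any oligonucleotide cannot be told apart. Each library was poly(A) RNA of whole gastrocnemius, in which fewer cells of a type and less RNA per cell cannot be told apart. The values are read-pair counts on the last 500 bp or less of annotated transcript ends, summed per gene, and levels are given as CPM, a gene's counts relative to the total of its library, after TMM scaling for library composition. A library held 2239186 to 2632560 counts in the ASO group and 1606909 to 2116720 in the CTRL group, so every ASO library was deeper than every CTRL library. CTRL replicate 3 stood apart in markers of other cell types, with summed adipocyte markers of 13350 CPM, against 845.6 to 2334 in the other 4 CTRL libraries and 719.1 to 3715 in ASO, and summed macrophage markers of 1006 CPM, against 159.9 to 385.9 and 41.5 to 285.1. Without it 4 genes rose and 12 fell in place of 5 and 13, and the calls of Fbxw7 and Fbxo28 were lost (edgeR adjusted p = 0.088 and 0.070).

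Cullin-RING ligases are the largest class of ubiquitin ligases. A cullin is an elongated scaffold that holds the RING subunit and the ubiquitin-charged E2 enzyme at one end and, at the other, a substrate receptor joined through an adaptor. Cul1 carries F-box proteins through Skp1, Cul3 carries BTB-Kelch proteins directly, Cul2 and Cul5 use the elongins B and C, and Cul4a and Cul4b use Ddb1. Attachment of the ubiquitin-like protein Nedd8 activates the scaffold, and the receptor decides which protein is marked for degradation. In skeletal muscle, loss of the Kelch proteins Klhl40 or Klhl41 causes nemaline myopathy, loss of Klhl31 in mice causes a myopathy with disrupted sarcomeres, and the F-box protein Fbxo40 directs the insulin receptor substrate Irs1 to degradation.

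The sequences below show the miRNA that the ASO targets and the places where its seed could pair with the 3′UTRs of these genes. The mature miRNA is printed from RefSeq (GRCm38.p6, chr11:75463772-75463793, + strand) with its seed, bases 2 to 8, in capitals. The other lines are 30-base windows of the transcript strand read from GRCm39, with the heptamer GGCAGCT, the reverse complement of that seed, in capitals. They were chosen for the genes with a match that changed (Cul3 at chr1:80243997-80244003, − strand, and both matches of Fbxw7 at chr3:84885097-84885103 and chr3:84885139-84885145, + strand), for Fbxo40 (chr16:36784451-36784457, − strand), which had the highest CTRL level, and for Fbxw5 (chr2:25395266-25395272, + strand), whose match lies inside the counted stretch.
mmu-miR-22-3p: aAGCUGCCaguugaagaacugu
Cul3: tcagagcacaaaggtGGCAGCTggttctat
Fbxw7, first match: taactgacaggaggcGGCAGCTgtcgcatc
Fbxw7, next match: cacttgtgactgaggGGCAGCTtggcaaga
Fbxo40: taaaatggcagatgtGGCAGCTtttgctga
Fbxw5: ctcttcccttgggttGGCAGCTcacacagg

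The heptamer was present in the longest annotated 3′UTR of 11 of the 50 tested genes (22%), against 2511 of all 7813 tested genes (32.1%). The 11 were Cul3, Fbxl20, Fbxo3, Fbxo40, Fbxo45, Fbxo46, Fbxw4, Fbxw5, Fbxw7, Fbxw8 and Fbxw9. None of the 15 tested Klhl genes held it, and Fbxw7 was the 1 gene of the 50 with 2 matches. Of the 11, 1 rose (Fbxw7), 1 fell (Cul3) and the others did not pass the test. The fall of Cul3 was over all its segments, and the call was lost on its exonic segments alone, as described below. Of the 2511 genes with a match over the whole table, 330 rose and 456 fell, beside 920 and 1363 of all 7813 tested genes. Within the counted stretches alone the heptamer lay in 3 of the 50 genes, Fbxo3, Fbxo46 and Fbxw5 (6.0%, against 8.73% of all tested genes), none of which passed the test. A match describes the letters only, and pairing was not measured.

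Between ASO and CTRL, 5 of the 50 tested genes rose and 13 fell (edgeR quasi-likelihood test, Benjamini-Hochberg adjusted p under 0.05 over all 7813 genes). The genes that rose were the scaffold Cul1, the muscle Kelch gene Klhl31 and the F-box genes Fbxl6, Fbxo42 and Fbxw7. The genes that fell were Cul2, Cul3, Cul4a and Cul5, the F-box genes Fbxo11, Fbxo28, Fbxo34, Fbxo38, Fbxo44, Fbxw11 and Fbxl17, and the Kelch genes Klhl9 and Klhl38. The share past the threshold was 36.0%, beside 29.2% of all genes tested. By direction it was 10.0% higher, beside 11.8%, and 26.0% lower, beside 17.4%. All 5 ASO libraries lay above all 5 CTRL libraries for Cul1 and Fbxl6, and below them for 9 genes, together 22% of the 50 beside 21.4% of all genes (7.97% above and 13.4% below).

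The median log2 fold change of the 50 genes was 0.043, beside −0.029 over all genes tested, with 27 genes above 0 and 23 below. With total counts in place of TMM, which shifts all genes by a median of −0.181, the members' median was −0.129 and 3 rose and 13 fell, and with upper quartile scaling 7 rose and 10 fell. Over all genes, 40.3% of the calls were higher with TMM, 22.5% with total counts and 51.1% with upper quartile scaling. Spread between libraries was like that of other genes, with a median coefficient of variation of 23.2% in CTRL and 22.4% in ASO, beside 23.1% and 23.2% over all genes. Cul1 was the least variable of the 50 in CTRL, at 7.76%.

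**Figure D1:**
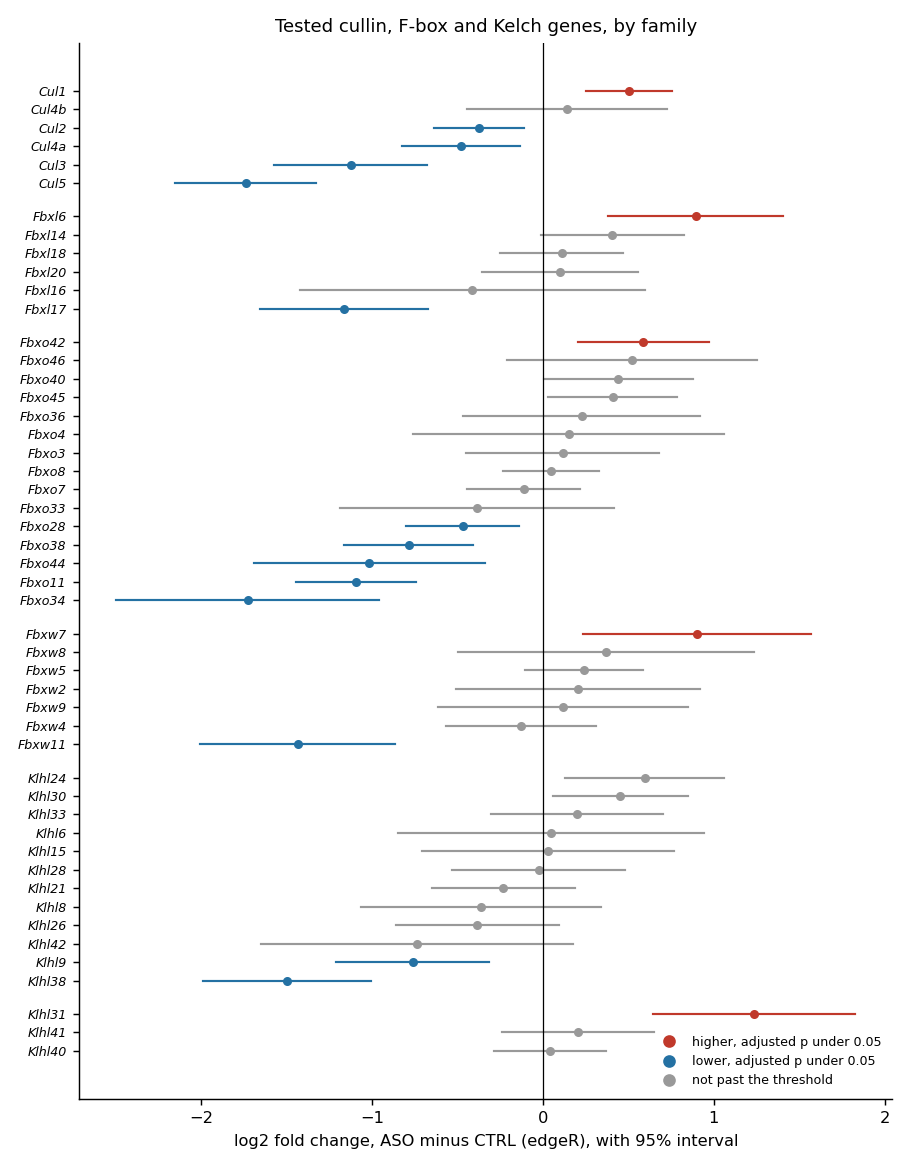
Log2 fold change (ASO minus CTRL, x axis) with its 95% interval for the tested genes except 1 that is not reported here, grouped by family and ordered within it. Red marks the 5 genes that rose, blue the 13 that fell and grey the others. 5 of the 6 cullins passed the test, and 12 of 15 Klhl genes did not. Over all genes tested 29.2% passed.

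Among the cullin scaffolds, 5 of 6 tested genes passed the test (83.3%, beside 29.2% of all genes tested), with Cul1 higher and Cul2, Cul3, Cul4a and Cul5 lower. The calls of Cul2 and Cul4a were lost in 13 of 20 and 11 of 21 alternatives. That of Cul3 was lost on exonic segments and on the most distal segment alone. Cul1, the scaffold of the SCF ligases that use F-box receptors, was at 271.8, 252.4, 287.6, 242.1 and 269.7 CPM in ASO replicates 1 to 5 and at 196.2, 202.4, 165.5, 188.8 and 179.8 CPM in CTRL replicates 1 to 5. Every ASO library was above every CTRL library, and the spread within each group was narrow. The rise was 1.42-fold (log2 0.51, 95% interval 0.25 to 0.76, edgeR adjusted p = 0.0067). It held in 20 of 21 alternatives, the exception being the most distal segment alone, where the log2 value was 0.25. That segment held 99.9% of the Cul1 counts, at 264.3 CPM in ASO and 186.3 in CTRL on the TMM scale used above, without overlap. The scaling of that alternative shifts all genes by a median of −0.246.

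Cul5, the scaffold that carries SOCS-box receptors, had the lowest adjusted p of the 50 genes. It was at 28.5, 39.1, 35.5, 40.9 and 30.2 CPM in ASO replicates 1 to 5 and at 86.8, 97.0, 104.3, 138.7 and 157.3 CPM in CTRL replicates 1 to 5. The groups did not overlap, and the highest ASO library was under the lowest CTRL library by more than the whole range of the ASO group. The log2 fold change was −1.74 (95% interval −2.15 to −1.33, edgeR adjusted p = 1.4e-04), and the call held in all 21 alternatives.

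Cul3, the scaffold of the BTB-Kelch ligases, was at 158.4, 181.8, 112.5, 92.7 and 149.0 CPM in ASO replicates 1 to 5 and at 240.1, 296.1, 243.1, 342.8 and 394.9 CPM in CTRL replicates 1 to 5, again without overlap. Its log2 fold change over all segments was −1.13 (95% interval −1.58 to −0.68, edgeR adjusted p = 0.0021). This value depended on which stretch of the gene was counted, as described below, and the call was lost on its exonic segments alone (log2 −0.21, edgeR adjusted p = 0.44).

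Cul2, a scaffold for the Vhl receptor, and Cul4a, a scaffold for Ddb1 and its receptors, changed less. Cul2 was at 175.7 ± 12.7 CPM in ASO and 227.8 ± 23.1 in CTRL (mean ± SD of 5 libraries each), and the log2 fold change was −0.37 (95% interval −0.64 to −0.11, edgeR adjusted p = 0.034). Cul4a was at 141.1 ± 30.6 CPM in ASO and 196.9 ± 17.8 in CTRL (mean ± SD of 5 libraries each), and the log2 fold change was −0.48 (95% interval −0.82 to −0.14, edgeR adjusted p = 0.037). The groups overlapped for both. The Cul2 call was lost when any library but ASO replicate 2 or CTRL replicate 3 was left out, with an edgeR adjusted p of up to 0.088, and the Cul4a call when ASO replicate 3, 4 or 5 or CTRL replicate 1, 2, 4 or 5 was left out, with an edgeR adjusted p of up to 0.11. The paralog Cul4b was counted on 1 segment only, 31.8% of it exonic, since its fully exonic segments had 0 bases of their own. It was at 9.26 ± 2.5 CPM in ASO and 8.41 ± 1.81 in CTRL (mean ± SD of 5 libraries each), and its log2 value was 0.14 (95% interval −0.45 to 0.72), or −0.030 with total counts. Cul7 and Cul9 had 0 counts and no base of their own in the counted segments, so nothing was measured for them.

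**Figure D2:**
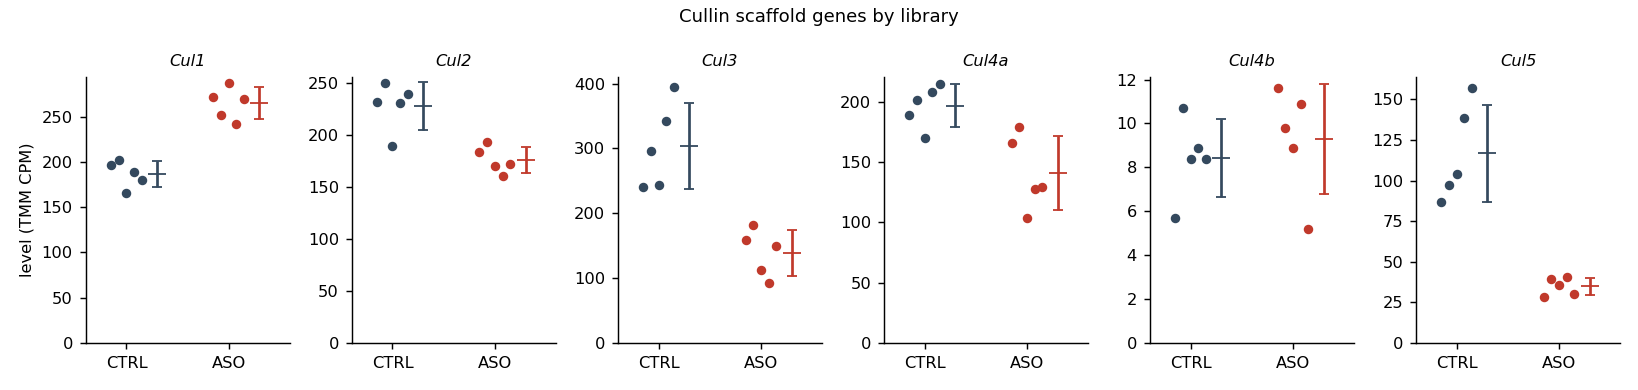
Level of the 6 tested cullins (y axis, TMM CPM, from 0) in each of the 5 CTRL and 5 ASO libraries, with the mean and SD beside the points. Cul1 lies between 242.1 and 287.6 CPM in ASO, above all CTRL libraries, while Cul3 and Cul5 lie below all CTRL libraries.

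Within a library, the share of each scaffold among the cullin counts needs no scaling between libraries. These shares were compared after the levels had been seen. Cul1 made up 34.9% ± 3.88 of cullin counts in ASO and 18.1% ± 2.18 in CTRL (SD, n = 5 each, two-sided exact permutation test p = 0.0079, adjusted over the 6 cullins 0.016). Cul3 made up 18% ± 3.12 in ASO and 28.9% ± 2.99 in CTRL, and Cul5 made up 4.61% ± 0.99 in ASO and 11.2% ± 1.88 in CTRL (SD, n = 5 each, the same exact p and adjusted value for both). Here 0.0079 is the smallest p that 5 against 5 libraries can give. Cul2, Cul4a and Cul4b did not pass in share, with adjusted values of 0.31, 0.64 and 0.083 by the same exact permutation test. Shares sum to 100%, so a rise of 1 scaffold lowers the others. On segments at least 50% exonic the shares of Cul1 (36.5% ± 3.53 in ASO, 23.2% ± 1.22 in CTRL) and Cul5 (4.77% ± 0.98 and 12.5% ± 2.36) still differed, and that of Cul4a did too (19.2% ± 3.0 and 24.4% ± 1.34, SD, n = 5 each, exact permutation p = 0.0079 and adjusted over 5 cullins 0.013 for each of the 3). The share of Cul3 did not pass on those segments (15.8% ± 2.41 in ASO, 16.0% ± 1.70 in CTRL, SD, n = 5 each, exact permutation p = 0.89).

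The counts of a cullin came from several places along the gene, and the places differed. In Cul3 (chromosome 1, − strand, GRCm39), the most distal segment, chr1:80242640-80243139 in the 3′UTR of a protein-coding transcript, was at 50.4 ± 10.5 CPM in ASO and 46.3 ± 11.5 in CTRL, with overlap (SD, n = 5 each). The segment 1900 bp upstream was at 66.4 ± 19.6 in ASO and 84.1 ± 16.2 CPM in CTRL, also with overlap. The segments 22127 and 23908 bp upstream, of which 15.6% and 5.6% of bases are exonic and which end transcripts annotated as subject to nonsense-mediated decay, were at 16.7 ± 8.86 and 5.44 ± 3.67 CPM in ASO against 113.0 ± 37.6 and 60.0 ± 26.3 in CTRL (SD, n = 5 each), without overlap.

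The share of Cul3 counts on those upstream segments was 18.9, 20.8, 5.26, 16.7 and 14.6% in ASO replicates 1 to 5 and 43.0, 45.8, 62.6, 62.1 and 66.0% in CTRL replicates 1 to 5. No ASO library reached the lowest CTRL library (two-sided exact permutation test p = 0.0079, adjusted over 5 genes 0.0099). Cul2, Cul5 and Fbxw11 showed the same separation, by the same exact permutation test with the same p and adjusted value, in the share of their counts on 1 upstream segment under 50% exonic. The mean share was 1.68% ± 0.50 in ASO and 15.1% ± 7.57 in CTRL for Cul2, 1.11% ± 1.14 and 12.8% ± 6.26 for Cul5, and 2.52% ± 1.89 and 26.1% ± 8.41 for Fbxw11 (SD, n = 5 each). Fbxo34, the fifth of the tested genes with at least 20 counts on such a segment and counts on another segment, did not separate (7.14% ± 10.1 in ASO, 10.6% ± 5.34 in CTRL, SD, n = 5 each, exact permutation p = 0.52). These shares were examined after the segments had been seen.

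What was left on the exonic segments differed from gene to gene. For Cul5 the 3′UTR segment that held 89.7% of its counts was at 34.4 ± 5.12 CPM in ASO and 100.7 ± 20.4 in CTRL, without overlap. That segment lies 2442 bp upstream of the distal end of Cul5. The segments at that end had 0 bases of their own and 0 counts, so the end itself was not measured. For Fbxw11 the 3′UTR segment was at 26.3 ± 9.65 in ASO and 53.1 ± 8.70 CPM in CTRL, without overlap. For Cul2, by contrast, the segment with 82.3% of its counts was at 167.2 ± 10.7 CPM in ASO and 159.2 ± 33.2 in CTRL, with overlap (SD, n = 5 each in all), so the lower sum for Cul2 came from segments 15080 and 18737 bp upstream. The most distal segments of Cul4a (56.9 ± 12 CPM in ASO, 55.2 ± 7.44 in CTRL) and of Fbxo28 (28.5 ± 4.61 and 25.8 ± 6.60) also overlapped between the groups (SD, n = 5 each), while Cul4a was lower on the segment 578 bp upstream (84.2 ± 25.6 in ASO, 141.7 ± 16.4 CPM in CTRL) and Fbxo28 on the segment 3889 bp upstream.

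Library-wide values moved with this pattern. The share of all counts on segments under 50% exonic was 2.62 to 3.18% in ASO libraries and 4.38 to 6.32% in CTRL libraries. Over 1283 genes with counts on both a distal and an upstream segment, the median log2 ratio of distal to upstream counts was 1.18 to 1.77 in ASO libraries and −0.58 to 0.44 in CTRL libraries. The part of these shifts in the lower sums of Cul2, Cul3, Cul5 and Fbxw11 was not tested.

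**Figure D3:**
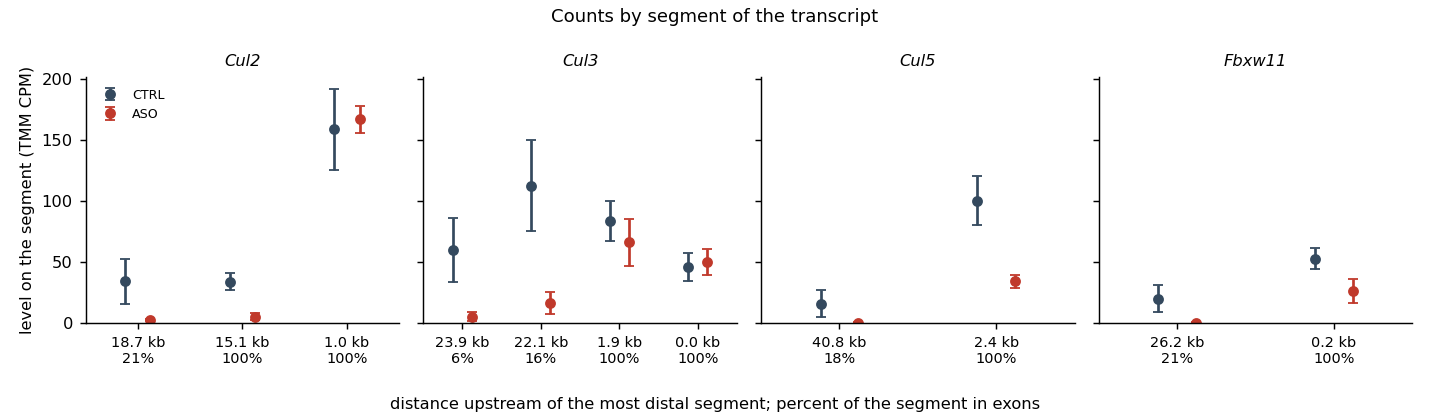
Mean level with SD (y axis, TMM CPM, n = 5 per group) on each counted segment of Cul2, Cul3, Cul5 and Fbxw11 with at least 20 counts, ordered from upstream (left) to distal (right). Each tick gives the distance to the most distal segment and the percent of the segment in exons. CTRL exceeds ASO on every upstream segment that is 15 kb or more away, and the groups overlap on the distal segments of Cul2 and Cul3.

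The muscle Kelch genes parted. Klhl31 rose, while Klhl40 and Klhl41 did not pass the test. Klhl31 (chromosome 9, 1 segment at chr9:77566910-77567409, + strand, in the 3′UTR) was at 2412.3, 1642.1, 1888.4, 1136.4 and 1955.1 CPM in ASO replicates 1 to 5 and at 980.5, 1181.2, 528.7, 659.7 and 480.3 CPM in CTRL replicates 1 to 5. Only ASO replicate 4 fell within the range of the CTRL libraries. The rise was 2.36-fold (log2 1.24, 95% interval 0.65 to 1.83, edgeR adjusted p = 0.0055), it held in all 21 alternatives, and its log2 value ran from 1.11 to 1.45 with 1 library left out.

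Klhl40, which stabilises the thin filament proteins nebulin and Lmod3, was at 267.5, 292.3, 321.4, 378.2 and 294.3 CPM in ASO replicates 1 to 5 and at 334.8, 328.8, 220.4, 322.8 and 305.0 CPM in CTRL replicates 1 to 5, with wide overlap. Its log2 fold change was 0.040 (95% interval −0.29 to 0.37), and −0.128 with total counts. Klhl41, which also acts on nebulin, was at 766.3, 784.7, 1087.8, 1422.8 and 955.9 CPM in ASO replicates 1 to 5 and at 1066.3, 966.7, 640.4, 962.4 and 712.3 CPM in CTRL replicates 1 to 5, a log2 fold change of 0.21 (95% interval −0.24 to 0.65). The interval of Klhl41 holds a change of the size measured for Cul1, and that of Klhl40 does not.

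As a share of the 3 genes' counts within a library, Klhl31 was 57.5% ± 11.5 in ASO and 38.6% ± 6.21 in CTRL (SD, n = 5 each, two-sided exact permutation test p = 0.024, adjusted over the 3 genes 0.036). Klhl40 was 10.1% ± 1.91 in ASO and 16.0% ± 2.77 in CTRL (exact permutation p = 0.0079, adjusted 0.024, n = 5 each), without overlap. Klhl41 was 32.5% ± 9.75 in ASO and 45.4% ± 3.96 in CTRL (exact permutation p = 0.04, adjusted 0.04, n = 5 each). These shares are parts of the same total, so a rise of Klhl31 lowers the others. The levels of Klhl40 and Klhl41 themselves overlapped between the groups and did not pass the test. ASO replicate 4 had the lowest Klhl31 share (38.7%) and the highest Klhl41 share (48.4%) of its group, and it also held 641 counts of the slow fiber myosin Myh7, against 0 to 135 in the other 9 libraries.

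Markers of muscle fibers moved with Klhl31. Of 14 fiber markers, 7 were tested and 4 rose (Ckm, Actn3, Tnnc2 and Atp2a1), their summed level was 110200 to 183300 CPM in ASO and 54790 to 105700 in CTRL, and Mylpf, Tnnt3 and Ryr1 were listed at 0 in all libraries. Of 8 macrophage markers, 6 were tested and 2 fell (Mrc1 and C1qc), with Adgre1 and Cd163 at 0, and none passed without CTRL replicate 3. Of 4 satellite cell markers, 3 were tested and 1 rose (Cdh15, mean 89.6 CPM in ASO and 38.3 in CTRL). Their summed level was 134.9 to 153.6 CPM in ASO and 67.4 to 98.4 in CTRL. Pax7 (8.61 CPM in ASO and 7.60 in CTRL) and Itga7 (40.5 and 33.2) did not pass the test, and the untested Myf5 was at 2.88 and 4.39. Without CTRL replicate 3, which had the lowest summed fiber markers, Klhl31 was still higher (log2 1.13, edgeR adjusted p = 0.011). The part of these markers in the rise of Klhl31 was not tested.

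**Figure D4:**
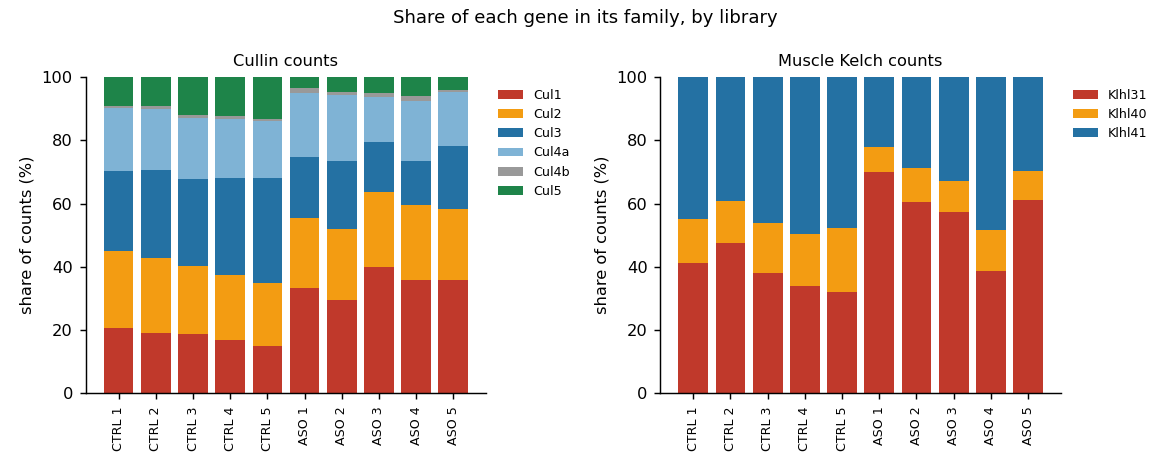
Share of each gene (y axis, percent of counts) among the 6 cullins (left) and among the 3 muscle Kelch genes (right), 1 bar per library. The Cul1 part runs from 29.5 to 40.0% in ASO and from 15.1 to 20.7% in CTRL, and ASO replicate 4 stands out on the right with a Klhl31 part of 38.7%.

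Of the 12 other tested Klhl genes, none rose and 2 fell, a share of 16.7%, beside 29.2% of all genes tested. By direction it was 0% higher, beside 11.8%, and 16.7% lower, beside 17.4%. Their median log2 fold change was −0.128, beside −0.029 over all genes tested. Klhl38 was at 34.8, 45.0, 16.5, 39.7 and 34.9 CPM in ASO replicates 1 to 5 and at 91.0, 85.3, 82.5, 111.5 and 113.5 CPM in CTRL replicates 1 to 5, on 1 segment in the 3′UTR (chr15:58177969-58178222, − strand). The groups were far apart, with a log2 fold change of −1.50 (95% interval −1.99 to −1.01, edgeR adjusted p = 7.2e-04). Klhl9, a Cul3 receptor that acts on Aurora B in mitosis, was at 67.1, 117.3, 109.5, 119.8 and 78.8 CPM in ASO replicates 1 to 5 and at 206.1, 216.4, 139.8, 136.9 and 137.1 CPM in CTRL replicates 1 to 5. Its groups did not overlap either, and its log2 fold change was −0.76 (95% interval −1.21 to −0.32, edgeR adjusted p = 0.015). Both calls held in all 21 alternatives.

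Klhl24, which controls turnover of intermediate filament proteins, was at 289.4 ± 33.7 CPM in ASO and 191.4 ± 66.1 in CTRL (SD, n = 5 each), a log2 value of 0.60 that missed the threshold (edgeR adjusted p = 0.054). DESeq2 and upper quartile scaling gave adjusted p-values of 0.029 and 0.036 for it. With total counts, no filter on low counts and the replicate block, its edgeR adjusted p was 0.12, 0.07 and 0.063. Klhl30 was at 306.7 ± 55.5 CPM in ASO and 224.2 ± 52.5 in CTRL (SD, n = 5 each, log2 0.45, edgeR adjusted p = 0.079), and DESeq2 and upper quartile scaling gave it adjusted p-values of 0.033 and 0.037. With total counts, no filter on low counts and the replicate block, the edgeR adjusted p of Klhl30 was 0.27, 0.086 and 0.13. Klhl21, another Aurora B receptor, was at 312.4 ± 75.8 CPM in ASO and 367.1 ± 69.4 in CTRL (SD, n = 5 each), a log2 value of −0.23 with an interval of −0.65 to 0.19.

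**Figure D5:**
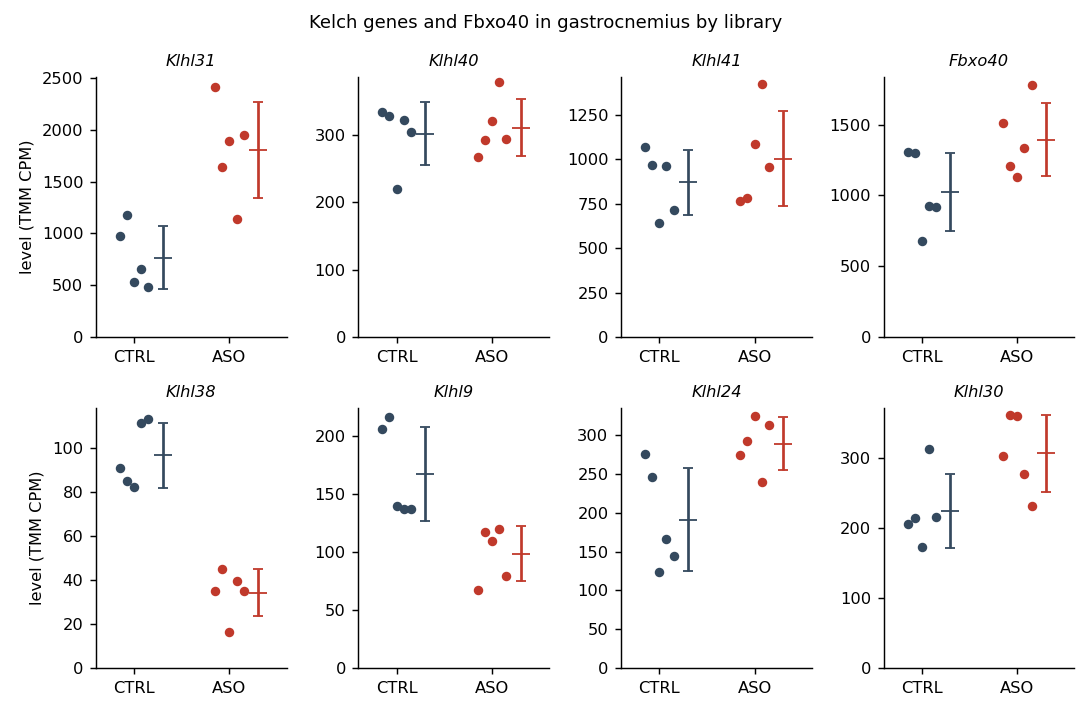
Level (y axis, TMM CPM, from 0) of 7 Kelch genes and of Fbxo40 in each of the 5 CTRL and 5 ASO libraries, with the mean and SD beside the points. Klhl31 is higher in ASO with 1 library inside the CTRL range, Klhl38 and Klhl9 are lower without overlap, and the other 5 genes overlap.

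Among the F-box genes, 3 of 29 tested rose and 7 fell, a share of 34.5%, beside 29.2% of all genes. The 15 tested Fbxo genes held 1 that rose and 5 that fell, the 7 Fbxw genes 1 and 1, and the 7 Fbxl genes 1 and 1. Fbxo11, a receptor for the repressor Bcl6, was at 44.4, 54.0, 28.8, 40.5 and 38.7 CPM in ASO replicates 1 to 5 and at 80.2, 83.5, 89.4, 89.1 and 98.9 CPM in CTRL replicates 1 to 5. The CTRL libraries lay close together, all above the ASO group, and the log2 fold change was −1.09 (95% interval −1.45 to −0.74, edgeR adjusted p = 6.2e-04). It was lower without overlap on each of its counted segments, both fully exonic and 559 and 1102 bp upstream of its distal end. The segments at that end had 0 bases of their own, so the end itself was not measured.

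Fbxw11, or β-TrCP2, the receptor for phosphorylated β-catenin and IκB, was at 21.2, 34.4, 13.1, 36.3 and 29.7 CPM in ASO replicates 1 to 5 and at 56.6, 61.1, 68.2, 76.1 and 104.5 CPM in CTRL replicates 1 to 5. No library crossed over, and its log2 fold change of −1.44 (edgeR adjusted p = 0.0020) was −1.06 on exonic segments alone (edgeR adjusted p = 0.0085). Fbxl17, which removes BTB proteins that have paired wrongly and thereby acts on Kelch proteins themselves, was at 26.6, 26.8, 27.1, 20.9 and 25 CPM in ASO replicates 1 to 5 and at 39.6, 47.1, 40.0, 73.8 and 83.7 CPM in CTRL replicates 1 to 5. The ASO libraries were nearly level while CTRL replicates 4 and 5 stood above the other CTRL libraries, and the log2 fold change was −1.16 (95% interval −1.65 to −0.67, edgeR adjusted p = 0.0028).

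Fbxo38 was at 23.2 ± 5.23 CPM in ASO and 40.0 ± 4.42 in CTRL (SD, n = 5 each) on 1 segment, a log2 value of −0.79 (edgeR adjusted p = 0.0055), and Fbxo34, a gene of low level, at 5.06 ± 2.5 and 16.8 ± 5.68 CPM (log2 −1.73, edgeR adjusted p = 0.0037). Neither overlapped between groups in its sum. By segment, Fbxo34 was without overlap only 2657 bp upstream of its distal end (1.25 ± 0.77 CPM in ASO, 8.43 ± 5.21 in CTRL). Its segment 62 bp upstream overlapped (3.47 ± 2.29 and 6.63 ± 0.78, SD, n = 5 each in both). Fbxo44 (log2 −1.02, edgeR adjusted p = 0.027) and Fbxo28 (log2 −0.47, edgeR adjusted p = 0.034) overlapped. Fbxo44 lost its call without ASO replicate 2 or 3 or CTRL replicate 1, 4 or 5, with an edgeR adjusted p of up to 0.071, and Fbxo28 without any library but ASO replicate 1 or CTRL replicate 1, with an edgeR adjusted p of up to 0.092.

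The F-box genes that rose were of low or middle level. Fbxo42, a receptor for p53, was at 37.7 ± 4.59 CPM in ASO and 25.1 ± 5.64 in CTRL (SD, n = 5 each), a log2 value of 0.59 (edgeR adjusted p = 0.025), which was lost without ASO replicate 5 or CTRL replicate 5 (edgeR adjusted p = 0.055 and 0.058). Fbxl6 was at 12 ± 2.16 CPM in ASO and 6.40 ± 1.23 in CTRL (SD, n = 5 each), a log2 value of 0.89 without overlap (edgeR adjusted p = 0.013), on a segment of 83 bp.

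Fbxw7, the receptor for Myc, cyclin E and Notch, was at 22.7, 22.1, 47.4, 28.8 and 32.5 CPM in ASO replicates 1 to 5 and at 15.6, 11.2, 11.4, 30.7 and 14.0 CPM in CTRL replicates 1 to 5. CTRL replicate 4 lay among the ASO libraries and above 3 of them. The log2 fold change was 0.90 (95% interval 0.23 to 1.57, edgeR adjusted p = 0.044). Without CTRL replicate 4 it was 1.23 (edgeR adjusted p = 0.0085), and the call was lost without ASO replicate 3 or 5 or CTRL replicate 1, 2, 3 or 5, with an edgeR adjusted p of up to 0.093. Its counts came from a segment with 104 bp of its own, upstream of both seed matches printed above.

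Fbxo40, the muscle F-box gene, was at 1508.9, 1208.3, 1131.3, 1335.6 and 1779.2 CPM in ASO replicates 1 to 5 and at 1306.4, 1301.5, 675.9, 925.2 and 915.0 CPM in CTRL replicates 1 to 5. The groups overlapped and the log2 value of 0.44 (95% interval 0.004 to 0.88) did not pass the test (edgeR adjusted p = 0.12). Fbxo7, which takes part in the clearance of damaged mitochondria, had a log2 value of −0.11 over all segments, made of a segment that was higher in ASO without overlap (23.5 ± 2.51 CPM against 17.8 ± 1.09) and one 22749 bp upstream of its most distal segment that was lower without overlap (2.5 ± 0.91 against 10.3 ± 4.03, SD, n = 5 each).

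Per kilobase of counted length, the order of levels in CTRL began with Fbxo40 (2050 ± 547 CPM per kb), Klhl41 (1739 ± 366) and Klhl31 (1532 ± 606), whose spreads overlapped. Klhl21 (734.2 ± 139) and Klhl40 (721.6 ± 113) followed and did not differ beyond their spread, then Klhl30 (448.4 ± 105), Klhl24 (382.8 ± 132), Klhl38 (381.0 ± 57.8), Klhl9 (334.5 ± 80.7) and Cul1 (302.3 ± 23.5), the first scaffold, all as mean ± SD of 5 libraries. In ASO the order began with Klhl31 (3614 ± 934 CPM per kb), Fbxo40 (2785 ± 518) and Klhl41 (2007 ± 538). Klhl31 was above Fbxo40 per kb in 4 of 5 ASO libraries and in 0 of 5 CTRL libraries, and above Klhl41 in 4 of 5 and 1 of 5. Klhl41 was above Klhl40 in every library of both groups.

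The 68 genes that were not tested had at most 80 counts over the 10 libraries, and 29 of them had 0. Of those 29, 13 had under 20 bases of their own in the counted segments and so could hardly have been counted. The 16 others had at least 20 such bases, and a gene at 0 has an upper limit of 3 counts per library, for counting error only. The Fbxw genes made up 13 of the 29, with 7 of 23 Fbxw genes tested. Among the untested genes with a known role in muscle, Fbxl22, a component of the Z-disc, had 32 counts over the ASO libraries and 13 over the CTRL libraries. No untested gene passed the test without the filter on low counts or in DESeq2.

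Of the other genes of these ligases, 86 of 118 in the table were tested, and 6 rose and 14 fell (23.3%, beside 29.2% of all genes). Their median log2 value was −0.032. Among the adaptors, Skp1, which joins F-box proteins to Cul1, fell to 381.1 from 596.8 CPM (log2 −0.65, edgeR adjusted p = 0.016), and Elob, the elongin B that joins receptors to Cul2 and Cul5, rose to 666.2 from 393.1 CPM (log2 0.76, edgeR adjusted p = 0.0075). Cand2, a muscle exchange factor that strips receptors from cullins, rose (log2 0.62, edgeR adjusted p = 0.018). In the neddylation list 2 of 6 tested genes fell (Uba3 and Dcun1d1), in the COP9 signalosome, which removes Nedd8 from cullins, 1 of 10 fell (Cops8), and of the E2 enzymes and their partners 2 of 7 fell (Ube2d3 and Arih1). Of 54 tested receptors of other families 4 rose and 8 fell, among them Asb15, a Cul5 receptor of muscle, which fell to 73.3 from 193.6 CPM (log2 −1.40, edgeR adjusted p = 0.0035).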

How the data were processed

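Gastrocnemius poly(A) RNA of 10 DIO mice (5 ASO, 5 CTRL) was sequenced from a stranded mRNA library. The authors trimmed reads with fastp, aligned them with STAR to GRCm39, and deposited raw featureCounts read-pair counts per transcript end, limited to at most 500 bp before the end of each 3′UTR. The strand setting is not given in the sources used here, so reads of a gene and of a gene on the other strand may not be told apart. The 4 per-sample columns of another name in the table were not used.

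Of 52423 segments, 52361 were assigned to a gene by transcript ID with GENCODE M39, and the others held 0.0197% of counts. Segments were summed per gene. edgeR 4.0.16 (TMM, filterByExpr, quasi-likelihood test, two-sided, Benjamini-Hochberg over 7813 genes) compared the groups in R 4.3.3, with no covariate. DESeq2 1.42.0 and limma 3.58.1 were alternatives. The script was tested on simulated data. Single values used exact permutation tests over libraries. Depths of 1606909 to 2632560 counts limit precision for low genes. Reads carry no molecular identifiers, so limits cover counting error only.

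Members and lists were chosen with earlier results of these data known. Genes named with values were the cullins, Klhl31, Klhl40, Klhl41, all members past the threshold, the 8 highest per kb in CTRL, and members with known muscle or mitochondrial roles. Of the last, Klhl33 did not pass the test (log2 0.20, edgeR adjusted p = 0.54). Fbxl2, Fbxl4 and Fbxl21 had too few counts to be tested. The shares within a library and the segment values were added after values were seen. Marker lists for adipocytes, endothelium, Schwann cells and blood gave no gene past the threshold, and the fibroblast list 1 that fell of 3 tested. Each library came from a separate mouse. Groups were the treatments named in the labels.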

Additional observations from a re-analysis of the deposited data

Results flagged for a closer look

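In 54 groups of 5 libraries examined over the named genes, 2 held 1 library that stood apart from the others of its group, and chance gives about 1 in 20. Fbxw7 was at 30.7 CPM in CTRL replicate 4, against 11.2 to 15.6 CPM in the other 4 CTRL libraries. Klhl40 was at 220.4 CPM in CTRL replicate 3, against 305.0 to 334.8 CPM in the other 4 CTRL libraries. CTRL replicate 3 also held the highest summed adipocyte (13350 CPM) and macrophage (1006 CPM) markers of all libraries. The cause was not tested for either.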

How the results depend on the processing

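Of the 18 called genes, 9 kept their call in each alternative that gave a value (Cul5, Fbxl17, Fbxo11, Fbxo34, Fbxo38, Fbxw11, Klhl9, Klhl31 and Klhl38), and 9 lost it in at least 1 of 21. The most distal segment alone gave no value for Fbxo34 and Fbxw11. DESeq2 and limma-voom kept all 18. With total counts 3 members rose, 24 other ligase genes fell and the members' median was −0.129. With the most distal segment alone, which shifts all genes by a median of −0.246, 1 member rose and 6 fell of 39 tested, 2 other ligase genes rose and 7 fell, and the median was −0.122. The segment used was the most distal one with bases of its own, which for Cul5 and Fbxo11 lay 2442 and 559 bp upstream. The median was 0.129 with upper quartile scaling. With no filter and with DESeq2 it was −0.093 and −0.086 over 89 members, 39 of them of low count, and 0.072 and 0.080 over the 50. With at least 10 counts in every library it was −0.051 over 37 members, whose median as reported was −0.024. It was −0.008 with only segments at least 50% exonic, an alternative chosen after seeing the data. With 1 library left out, 3 to 7 members rose, 9 to 12 fell, and the median was −0.035 to 0.086. The count of 3 was without CTRL replicate 5, and the median was below 0 without ASO replicate 4 or CTRL replicate 3 (−0.009). Over all alternatives 17 of the 50 values changed sign, none of a called gene. Among the genes named by rule these were Cul4b (−0.030 with total counts, −0.109 on the most distal segment), Klhl41 (−0.043 on the most distal segment) and Klhl40 (−0.128 with total counts, −0.211 on the most distal segment, −0.008 on exonic segments, and −0.058 to 0.111 with 1 library left out, below 0 without ASO replicate 4, at −0.017, or CTRL replicate 3). With the replicate number as a block, 3 members rose and 11 fell, and 3 other ligase genes rose. Same-numbered libraries share only a number, since their deviations correlated at −0.427, 0.057, 0.052, 0.060 and 0.163. For Cul3 the loss on exonic segments follows from leaving out its upstream segments. For Cul2 that setting left out only the segment 18737 bp upstream, 21.2% exonic. Its segment 15080 bp upstream is fully exonic and was kept. Fbxl6, Fbxo42, Klhl40 and Klhl41 have 1 segment each, and Cul1 had 99.9% of its counts on its most distal segment. Their values on the most distal segment therefore rest on the same or nearly the same counts under another scaling. That scaling shifts genes with 1 segment by a median of −0.253. The cause of the remaining changes was not tested. Changes in genes of a few CPM were detectable only when large at this depth.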
